A study of Mus musculus with 12 samples.

Results

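The circadian clock genes described here are Per1, Per2, Per3, Cry1, Cry2, Nr1d1, Nr1d2, Dbp, Tef and Clock, 10 of the 30130 genes listed in the deposited expression table. They were chosen by name, as repressors, outputs and one activator of the clock, and all 10 passed the filter on low values. RNA was sequenced in bulk from the proximal thoracic aorta in 12 samples labelled male and of strain C56BL/6J. The 7 chronic proximal thoracic aortic aneurysms (cPTAA) came from mice given elastase around the aorta together with BAPN, an inhibitor of the enzymes that cross-link elastin and collagen. The 5 controls, called sham here and labelled NC, had a sham operation and normal drinking water. The aneurysm is thus a combined model of enzyme injury and blocked cross-linking, and neither agent was tested alone. The labels give no age, no time of day of harvest, no sequencing batch and no animal for each library, so a p-value here speaks of how these samples vary, which may be partly technical. Libraries are named by the numbers in their titles, cPTAA 2, 3, 4, 6, 7, 9 and 12 and sham 1, 5, 8, 10 and 11.

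The clock of a mammalian cell is a loop of transcription. Clock pairs with Bmal1 and binds E-box sequences, which drives the Per and Cry genes, and the PER and CRY proteins then shut that pair off. The same pair drives Nr1d1 and Nr1d2, which encode the nuclear receptors REV-ERB alpha and beta that repress Bmal1, and Dbp and Tef, which encode transcription factors that bind D-box sequences in output genes. In mouse tissues, vessels included, Dbp and Bmal1 transcripts peak at opposite times of day.

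The sequences through which this loop works were looked up in the promoters of the members, from 250 bases before to 50 bases after each RefSeq start site (GRCm38.p6, which is not the build GRCm39 named in the submitters' processing notes). A promoter was found for 9 of the 10 genes, all but Per2. The E-box CACGTG was present in 3 of these 9 genes, Per1, Cry1 and Tef, and in 7.15% of all 32851 promoters of that length, or 8.09% of 27025 genes counted the same way. The variant E-box CACGTT, which reads as AACGTG on the other strand, was present in 3 of the 9, Cry1, Cry2 and Nr1d1, against 4.68% of all promoters and 5.44% of genes. The D-box TTATGTAA, which reads as TTACATAA on the other strand, was present in Per3 alone, in 2 copies, against 0.938% of all promoters and 1.11% of genes. Nr1d2, Dbp and Clock held none of these 3 motifs, none of the 9 held the receptor element TAGGTCA, which reads as TGACCTA on the other strand, or the cAMP element, the palindrome TGACGTCA, and both occurred at shares of 2.61% and 1.79% among all promoters. One window of 100 bases is shown for each kind of element in genes whose values the results turn on, written 5′ to 3′ on the gene's strand, with the element in capitals.
Per1, E-box, chr11:69098736-69098835, plus strand: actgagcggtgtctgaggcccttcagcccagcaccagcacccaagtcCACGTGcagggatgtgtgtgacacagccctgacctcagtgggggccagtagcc
Tef, E-box before its second start site, chr15:81811229-81811328, plus strand: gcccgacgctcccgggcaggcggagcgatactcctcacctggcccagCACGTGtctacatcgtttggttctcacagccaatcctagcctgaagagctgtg
Cry2, variant E-box, chr2:92434183-92434282, minus strand: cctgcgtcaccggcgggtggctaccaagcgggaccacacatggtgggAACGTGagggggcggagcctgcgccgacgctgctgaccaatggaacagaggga
Nr1d1, variant E-box, chr11:98775378-98775477, minus strand: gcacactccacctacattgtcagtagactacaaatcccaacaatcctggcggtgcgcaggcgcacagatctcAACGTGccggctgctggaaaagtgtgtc
Per3, D-boxes, chr4:151044816-151044915, minus strand: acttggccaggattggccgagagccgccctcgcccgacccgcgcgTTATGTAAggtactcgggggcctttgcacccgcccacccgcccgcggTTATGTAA
In these windows the element began 166 bases before the start site in Per1, 138 in Tef, 166 in Cry2 and 28 in Nr1d1, and the 2 copies in Per3 began 205 and 158 bases before it. A match is a sequence in the reference and not evidence of binding in these aortas.

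The libraries held 14078885 to 17493428 reads on genes. The smooth muscle markers that define an aortic sample were present in every library, with a summed level of 70988 to 275285 normalised read counts in cPTAA and 226751 to 307779 in sham, and 5 of 10 were lower in cPTAA. All 10 brown adipocyte markers were lower in cPTAA (summed level 2362 to 47962, against 37731 to 115041 in sham), and all 10 macrophage and all 8 lymphocyte markers were higher (macrophages 33743 to 63110 against 5325 to 24727). Summed cardiomyocyte markers ran from 1592 in cPTAA 12 to 135134 in cPTAA 9, and from 1986 to 7836 in sham. No marker was at 0 in all libraries. In a bulk sample fewer cells of a type and less RNA per cell cannot be told apart. Some aneurysm libraries stood apart. In cPTAA 6 and 9, genes with a longest transcript of at least 6000 bp lay low relative to genes of at most 2000 bp (a log2 score of -0.98 and -1.18, against -0.003 to 0.611 in the other 10 libraries), and cPTAA 12 held the highest level of the 7 for 10 of 12 glucocorticoid-responsive genes.

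Per unit of transcript, the output and receptor genes were the most abundant members in sham aorta. The median normalised read count per kilobase of annotated exon was 436 for Tef, 388 for Nr1d1, 357 for Nr1d2 and 331 for Dbp. It was 121 for Clock, 111 for Per2, 107 for Cry2, 98.6 for Per1, 71.7 for Per3 and 39.0 for Cry1. The ranges over the 5 sham libraries overlapped between every pair of neighbours in this order, for example 114 to 552 for Dbp and 82.3 to 139 for Clock, so the order of neighbours is not firm. Bmal1, listed in the table under its earlier symbol Arntl, had a median of 51.9 on the same scale.

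Among the repressors, Per2 was low in most aneurysms. Per2, a PERIOD protein that holds the repressor complex together, had 368, 610, 649, 740 and 1372 normalised read counts in sham 1, 5, 8, 10 and 11. In cPTAA 2, 3, 4, 6, 7, 9 and 12 it had 416, 114, 166, 719, 214, 807 and 303. The 4 libraries cPTAA 3, 4, 7 and 12 lay below every sham library and none lay above the highest, but the groups overlapped. The log2 fold change was -1.12 ± 0.46 (SE, cPTAA against sham), and its adjusted p of 0.0914 missed the threshold of 0.05 (limma, Benjamini-Hochberg over all 21415 genes tested).

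Per1, the PERIOD gene that also answers within hours to hormones and other acute signals, had 272, 419, 555, 1099 and 1116 in sham 1, 5, 8, 10 and 11. In cPTAA 2, 3, 4, 6, 7, 9 and 12 it had 398, 229, 163, 710, 208, 732 and 1853. The value of cPTAA 12 was the highest of all 12 libraries, and 3 aneurysms lay below the lowest sham. Per1 differed by -0.46 ± 0.55 between groups (adjusted p = 0.593). Per3, the third PERIOD gene, had 360, 623, 696, 689 and 1160 in the same sham order. In cPTAA it had 778, 171, 128, 853, 346, 980 and 492, so that cPTAA 3, 4 and 7 lay below every sham and none above the highest. Its difference was -0.64 ± 0.48 (adjusted p = 0.372).

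Cry2 was the one member that passed the test. Cry2 encodes a CRYPTOCHROME that binds the Clock and Bmal1 pair and blocks it. It had 674, 817, 875, 675 and 658 in sham 1, 5, 8, 10 and 11, and 586, 390, 358, 504, 545, 560 and 610 in cPTAA 2, 3, 4, 6, 7, 9 and 12. The highest aneurysm lay below the lowest sham, and the groups did not overlap. The fall was -0.56 ± 0.16 on the log2 scale, to 0.68 times the sham level (adjusted p = 0.0171). With the mean log2 level of the brown adipocyte markers as a covariate it was -0.86 with an adjusted p of 0.0761, and with that of the macrophage markers it was -0.54 with an adjusted p of 1.0, a fit in which none of the 21415 genes passed at all. Neither covariate overlapped between the groups, the brown adipocyte level being 6.97 to 10.7 in cPTAA and 10.8 to 12.3 in sham and the macrophage level 10.6 to 11.8 and 7.96 to 9.26. An antisense transcript, D930015M05Rik, shares 295 bp of exon with Cry2 and had at most 20.5 normalised read counts in any library. Cry1, the second CRYPTOCHROME, had 94.9, 95.5, 165, 141 and 130 in sham. In cPTAA it had 46.6, 91.7, 124, 109, 69.5, 139 and 81.2, with 4 values below the lowest sham, and the difference was -0.45 ± 0.27 (adjusted p = 0.246).

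The REV-ERB genes fell into 2 sets of aneurysms. Nr1d1 had 1011, 931, 1193, 1287 and 1318 in sham 1, 5, 8, 10 and 11. In cPTAA 2, 6, 7, 9 and 12 it had 1363, 1259, 1375, 1326 and 1323, and in cPTAA 3 and 4 it had 393 and 347. The first 5 were thus near or above the top of the sham range and the other 2 far below it, and the group difference was -0.30 ± 0.36 (adjusted p = 0.585). Nr1d2 had 1750, 1929, 1885, 2172 and 2637 in sham, and 2353, 2205, 1552, 1960 and 1836 in cPTAA 2, 6, 7, 9 and 12. It had 651 and 634 in cPTAA 3 and 4, again the lowest of the 12 libraries, and the difference was -0.53 ± 0.32 (adjusted p = 0.266). Nr1d1 shares 263 bp of exon with Thra on the other strand, and Thra in cPTAA 3 and 4 (1400 and 1166) lay near the 1266 of cPTAA 9.

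The output gene Dbp had the widest range of the members. Dbp had 342, 530, 1083, 990 and 1652 in sham 1, 5, 8, 10 and 11, a 4.84-fold range. In cPTAA 2, 3, 4, 6, 7, 9 and 12 it had 1366, 88.1, 51.7, 2709, 809, 2269 and 914, a 52.4-fold range. The aneurysms lay on both sides of the controls, cPTAA 3 and 4 below every sham and cPTAA 6 and 9 above every sham. The group difference was -0.40 ± 0.89 (adjusted p = 0.786), and on the recovered reads it was 0.34 by edgeR, 0.35 by DESeq2 and -1.24 by limma's voom with sample weights, so its sign depended on the method. Dbp shares 539 bp of exon with Sphk2 on the other strand, and Sphk2 ran only from 253 to 426 in cPTAA. Tef, which encodes a factor of the same family, had 2734, 3113, 3428, 3711 and 4898 in sham. In cPTAA it had 3382, 776, 631, 3793, 1855, 4299 and 2207. The 4 libraries cPTAA 3, 4, 7 and 12 again lay below every sham and none above the highest, with a difference of -0.84 ± 0.43 (adjusted p = 0.181).

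Clock, the activator, ran the other way among the aneurysms. It had 1785, 1911, 1354, 1659 and 1130 in sham 1, 5, 8, 10 and 11. In cPTAA 2, 3, 4, 7 and 12 it had 1244, 1872, 1859, 1478 and 1361, all within the sham range, and in cPTAA 6 and 9 it had 506 and 342, below every sham. The difference was -0.54 ± 0.38 (adjusted p = 0.343). Those 2 libraries are the ones in which long transcripts lay low, and the longest annotated Clock transcript has 9744 bp. They are also the aneurysms with the lowest Bmal1 (94.7 and 60.8). The difference was -0.24 with the long-transcript score as a covariate (adjusted p = 0.379), and it was 0.002 without cPTAA 6 and 9 (adjusted p = 0.995). With Bmal1 as a covariate it was -0.49 (adjusted p = 0.0619), and which of these features goes with the low Clock was not tested.

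**Figure D1:**
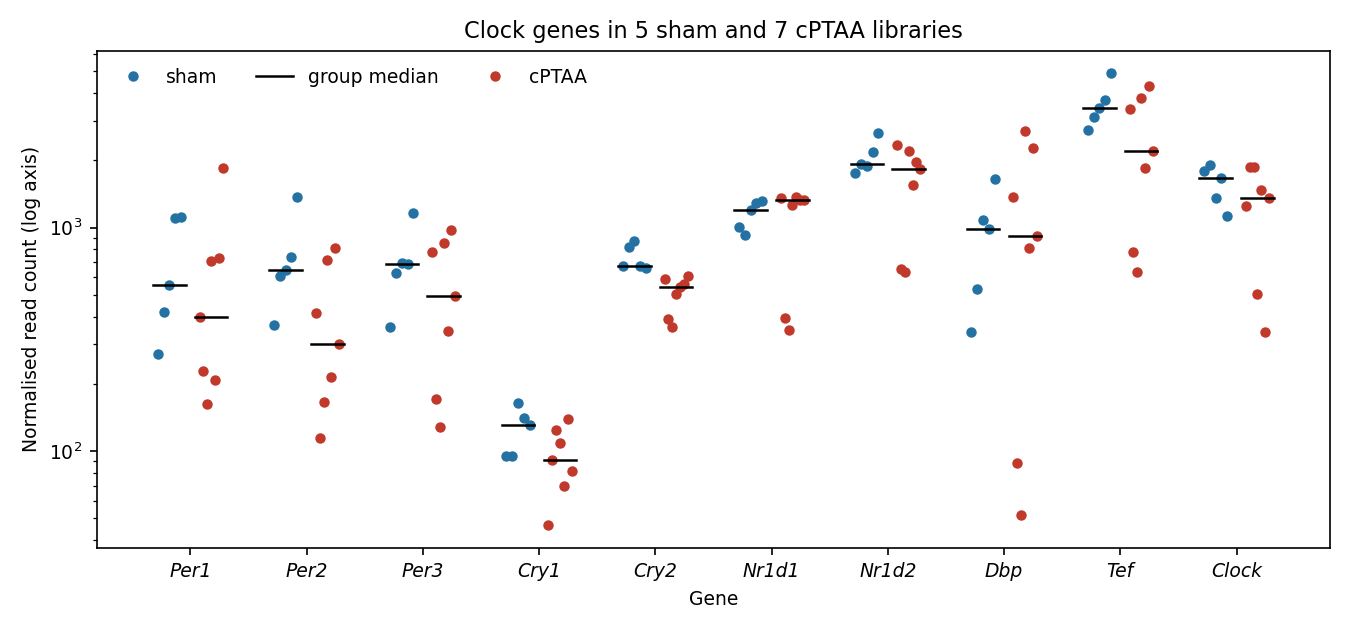
Normalised read counts (log axis) of the 10 clock genes in 5 sham and 7 cPTAA libraries; each point is 1 library and each bar a group median. In Nr1d1, Nr1d2 and Dbp the 2 lowest aneurysm points, cPTAA 3 and 4, stand apart from the rest, and in Cry2 no aneurysm point reaches the sham points.

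Across the 10 genes, none rose and 1, Cry2, fell by limma. Of all genes tested, 12.9% rose, 11.1% fell, 23.9% did either and 13.0% had groups that did not overlap, so 1 call among 10 members lay close to the background. At an unadjusted p of 0.05 none was higher and 2 were lower, and no count over all genes is given at that threshold. No member rose by edgeR, DESeq2 or limma's voom with sample weights either, while 1, 1 and 4 fell. Over all genes these methods called 4883, 5709 and 6958 in either direction, against 5128 by limma. The 4 members by voom thus came with more calls over all genes. All 10 log2 fold changes were below 0, with a median of -0.53, against -0.05 over all tested genes, of which 11458 of 21415 were below 0. By edgeR and DESeq2 this did not hold for Dbp, as given above. Per2 also fell without cPTAA 6 (-1.32, adjusted p = 0.0490) or without cPTAA 9 (-1.35, adjusted p = 0.0275), and Per2 and Tef fell without both (-1.63, adjusted p = 0.00520, and -1.26, adjusted p = 0.0303). These are the 2 aneurysms with the highest Per2 and the highest Tef, so leaving them out lowers the mean of the aneurysms in both genes. Per2 did not pass when any other single library was left out, for example -0.88 without cPTAA 3 (adjusted p = 0.156) and -0.87 without sham 11 (adjusted p = 0.230), nor with the brown adipocyte level as a covariate (-0.76, adjusted p = 0.580).

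Several members moved together from library to library within the aneurysms. Of the 45 pairs of members over the 7 aneurysms, 30 had a positive Pearson's r and 11 had an adjusted p under 0.05 by exact permutation. Among those 11, Per2 with Clock ran in opposite directions (r = -0.922, exact permutation, adjusted p = 0.00273). Clock was far lowest in cPTAA 6 and 9, which had the highest Per2 of the 7 aneurysms. The coefficient of this pair without both libraries was not computed. Many coefficients of pairs that did not pass rested on cPTAA 3 and 4. Without these 2 libraries that of Nr1d1 with Nr1d2 went from 0.965 to -0.419 and that of Nr1d1 with Dbp from 0.949 to -0.734. These pairs had adjusted p of 0.0764 and 0.0723 by exact permutation. Among pairs that passed, Nr1d1 with Cry2 went from 0.962 to 0.546 and Nr1d2 with Dbp from 0.973 to 0.657. Per3 with Tef, which also passed, was 0.996 with and 0.992 without the 2 libraries. The ratio of Dbp to Bmal1 within a library, which does not depend on scaling, ordered the 12 libraries. Bmal1 is the partner of Clock, and its level was 464, 393, 390, 254 and 112 in sham 1, 5, 8, 10 and 11 and 158, 864, 774, 94.7, 510, 60.8 and 350 in cPTAA 2, 3, 4, 6, 7, 9 and 12. The log2 ratio was lowest in cPTAA 4 and 3 (-3.88 and -3.28), lay between -0.44 and 3.87 in all 5 sham libraries and in cPTAA 7, 12 and 2 (0.67, 1.38 and 3.11), and was highest in cPTAA 6 and 9 (4.83 and 5.2). Thus 4 of the 7 aneurysms lay outside the sham range, 2 on each side. The 2 on the high side, cPTAA 6 and 9, are also the libraries in which long transcripts lay low. The longest annotated transcript has 1837 bp for Dbp and 3995 bp for Bmal1, and the part of transcript length in this order was not tested. The group means did not differ beyond this spread, at 1.15 ± 3.63 (SD, n = 7) and 1.46 ± 1.64 (SD, n = 5), a difference of -0.31 with a two-sided exact permutation p of 0.857 over 792 splits. The difference was -1.86 without cPTAA 6 and 9 (exact permutation p = 0.270) and -2.12 without cPTAA 6, 7 and 9 and sham 8 (exact permutation p = 0.314).

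At the low end of that order most members were low. In cPTAA 4, 8 of the 10 members lay below their mean over the 12 libraries, all but Cry1 and Clock, and in cPTAA 3 it was 9, all but Clock. cPTAA 4 had the lowest value of the 7 aneurysms for 7 of 10 members, against 12.5% of all tested genes. At the high end, in cPTAA 6 and 9, 8 of 10 lay above the mean, all but Cry2 and Clock. Dbp is part of the ratio that sets the order, so its own place at either end follows in part from the ordering. No share of all genes above or below their mean is given for these libraries. Npas2, a relative of Clock that can take its place, followed Bmal1, with 328 and 180 in cPTAA 4 and 3 and 28.6 and 22.6 in cPTAA 6 and 9. cPTAA 7 and 12, with ratios inside the sham range, did not show one pattern for all members, since Nr1d1 lay above its mean in both while Per2, Per3 and Tef lay below theirs.

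**Figure D2:**
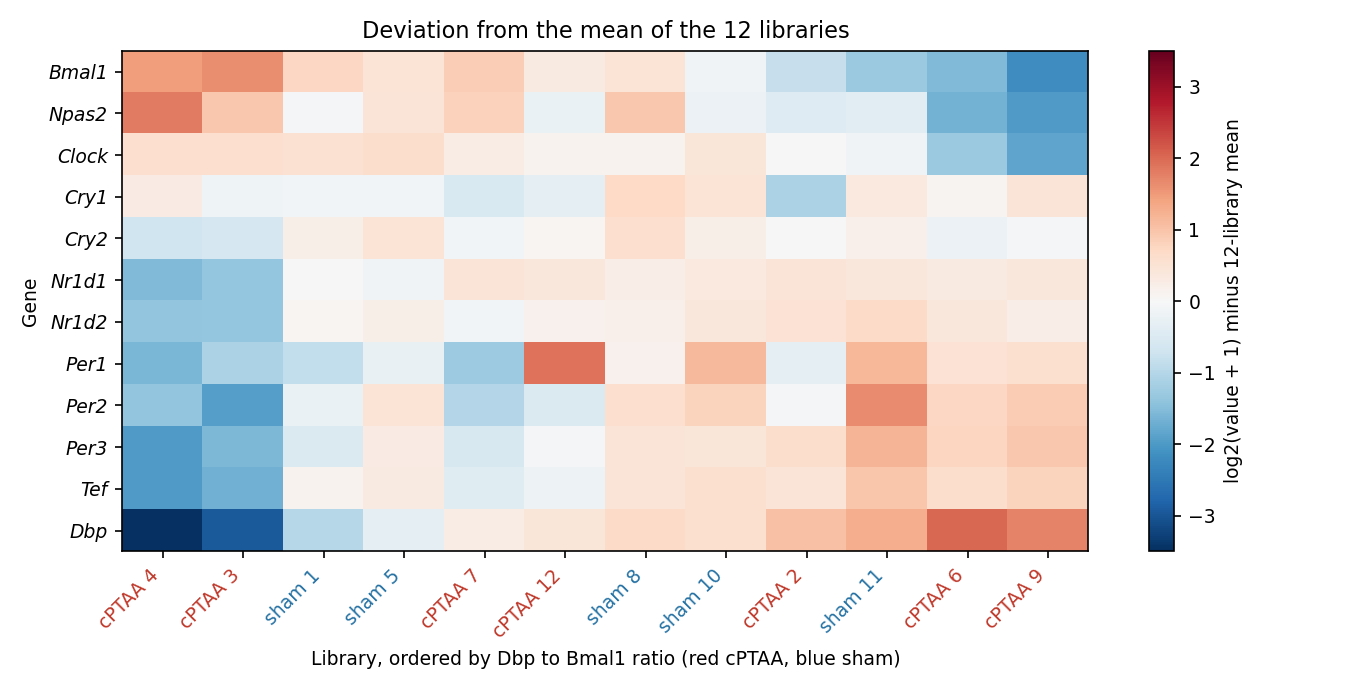
Deviation of log2(value + 1) from the mean of the 12 libraries for the 10 members with Bmal1 and Npas2 (rows), with libraries as columns ordered by the Dbp to Bmal1 ratio. The left columns, cPTAA 4 and 3, are high in Bmal1 and Npas2 and low in most other rows, and the right columns, cPTAA 6 and 9, show the reverse.

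Among the 7 aneurysms Per2 and Bmal1 stood in exactly opposite order. On log2(value + 1), Pearson's r was -0.984 (two-sided exact permutation p = 0.000198, the smallest 7 libraries allow for it) and Spearman's rho was -1.0 (exact permutation p = 0.000397). The Benjamini-Hochberg adjusted values over the 55 relations computed were 0.00273 and 0.00546. Without cPTAA 6 and 9, the 2 libraries farthest from the median of Bmal1, r was -0.959. For Per3 and Bmal1 r was -0.937 and rho -0.964 (exact permutation p = 0.00337 and 0.00278, adjusted 0.0193 and 0.0127), and r was -0.946 without those 2 libraries. For Cry1 r was -0.139 and rho -0.214 (exact permutation p = 0.770 and 0.662, adjusted 0.784 and 0.713), and r was 0.877 without the same 2, a change of sign that rests on those libraries. For Per1 r was -0.572 and rho -0.679 (exact permutation p = 0.181 and 0.110, adjusted 0.232 and 0.208), and r was -0.486 without them. Of the 10 members, 9 had a negative r with Bmal1 and 5 had an adjusted p under 0.05 by exact permutation. Besides Per2 and Per3 these were Dbp (r = -0.871, adjusted p = 0.0362), Tef (-0.925, 0.0193) and Clock (0.935, 0.00273). Without cPTAA 6 and 9 r was -0.847, -0.927 and 0.944. Values of Dbp, Tef, Nr1d1, Nr1d2 and Cry2 in cPTAA 3 and 4, and of Clock in cPTAA 6 and 9, stood apart from the rest. Coefficients with Bmal1 without cPTAA 3 and 4 were not computed. The 5 sham libraries are too few for a correlation, but their Per2 values also ran in the opposite order to Bmal1, from 1372 in sham 11 to 368 in sham 1.

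At a like level of Bmal1, Per2 was lower in the aneurysms. Sham 11 had 112 for Bmal1 and 1372 for Per2, whereas cPTAA 6 had 94.7 and 719 and cPTAA 2 had 158 and 416. Sham 8 and 5 had 390 and 393 for Bmal1 with 649 and 610 for Per2, whereas cPTAA 12 had 350 with 303. In a limma fit with log2 Bmal1 as a covariate, which was added after seeing the data and assumes 1 slope for both groups, Per2 fell by 1.18 ± 0.14 on the log2 scale (adjusted p = 4.5e-05). Tef (-0.90 ± 0.20, adjusted p = 0.00439), Per3 (-0.70 ± 0.21, adjusted p = 0.0206) and Cry2 (-0.57, adjusted p = 0.0110) fell as well in that fit, and the other 6 members did not pass. Of the 21415 genes tested, 2842 fell in that fit. With the brown adipocyte level as a second covariate the same 4 genes passed, Per2 at -1.51 (adjusted p = 0.00894), and 191 of all genes fell. Without cPTAA 6 and 9 the Bmal1 fit called Per2 (-1.16, adjusted p = 0.000469), Tef and Cry2 but not Per3 (-0.53, adjusted p = 0.120).

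**Figure D3:**
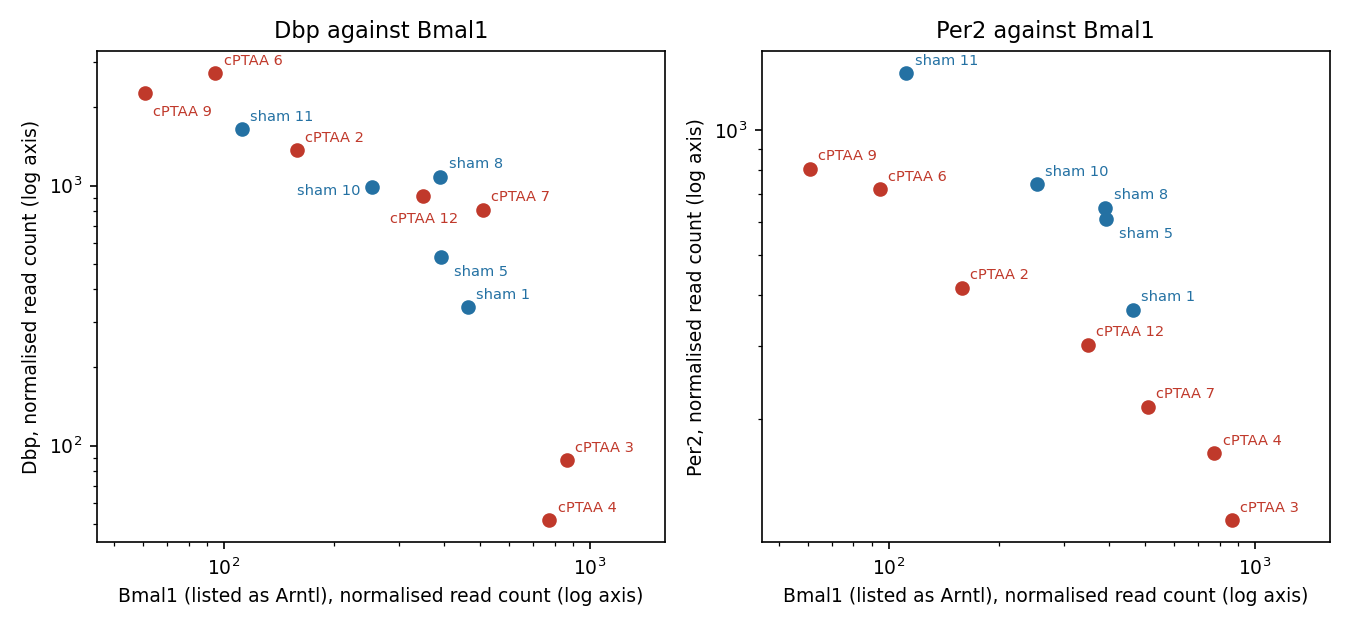
Dbp (left) and Per2 (right) against Bmal1 in normalised read counts (log axes), 1 labelled point per library. Both fall as Bmal1 rises; in the right panel the aneurysm points lie below the sham points of like Bmal1 level, for example cPTAA 12 at 303 against sham 8 at 649, while in the left panel the groups are mixed.

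Within groups the members spread more in the aneurysms. The SD of log2(value + 1) was larger in cPTAA than in sham for all 10 members, against 66.9% of all tested genes. That share includes low genes. It is not given for the genes with a mean of at least 50, to which all 10 members belong. The median SD of the members was 1.01 in cPTAA and 0.33 in sham, against 0.38 and 0.22 for the 12666 genes with a mean of at least 50. Over those genes the ratio of the SD in cPTAA to that in sham had a median of 1.57. Per1 (1.41), Cry1 (1.52), Per2 (1.55) and Cry2 (1.58) lay below or close to that ratio. The remaining members lay above it, from 1.93 for Per3 to 4.11 for Nr1d1. Dbp had an SD of 2.25 in cPTAA, rank 82 of those 12666 genes, and 0.90 in sham, rank 544. Tef (1.10 against 0.32), Nr1d1 (0.90 against 0.22) and Nr1d2 (0.81 against 0.23) had the SDs that differed by the largest ratios, 3.5 to 4.11. Cry2, the member with the least spread, had 0.30 and 0.19. These spreads are a description over 7 and 5 libraries, with no test.

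**Figure D4:**
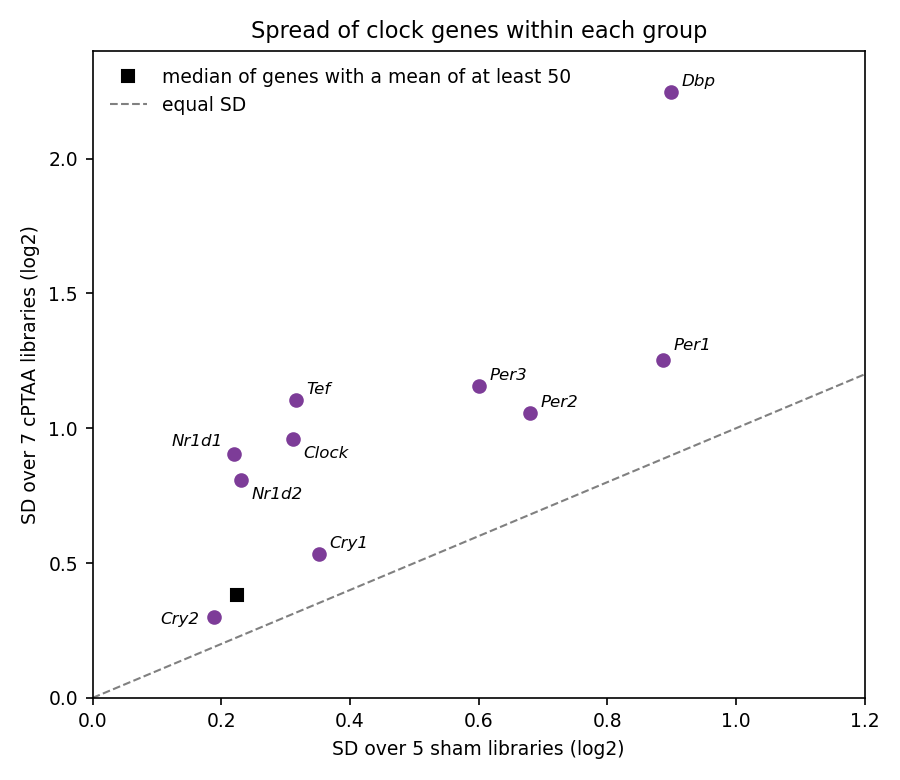
SD of log2(value + 1) over 7 cPTAA libraries against that over 5 sham libraries, 1 point per member, with the dashed line marking equal SD and the square the median of genes with a mean of at least 50. All 10 points lie above the line, with Dbp highest at 2.25 against 0.90.

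Of 19 other genes of the clock, none rose and 2 fell by limma, beside 11.1% of all genes tested. At an unadjusted p of 0.05 by limma, 1 was higher and 4 were lower, and no count over all genes is given at that threshold. By edgeR, DESeq2 and voom none rose and 2, 2 and 3 fell, where these methods called 4883, 5709 and 6958 of all genes in either direction. By limma it was 5128 of all genes. The median log2 fold change of the 19 other clock genes was -0.11, with 13 of 19 below 0. Hlf, the third factor of the Dbp and Tef family, had 272, 351, 425, 471 and 492 in sham 1, 5, 8, 10 and 11 and 189, 33.3, 46.9, 211, 76.3, 359 and 103 in cPTAA. All but cPTAA 9 lay below every sham, and the fall was -1.85 ± 0.49 (adjusted p = 0.0121). Cipc, which encodes an inhibitor of Clock, had 769 to 901 in sham and 458 to 710 in cPTAA, with no overlap (-0.56 ± 0.12, adjusted p = 0.00355). Neither passed with the brown adipocyte level as a covariate (Hlf -1.47, adjusted p = 0.301; Cipc -0.24, adjusted p = 0.441).

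Rora, a receptor that activates Bmal1 through the same elements REV-ERB proteins bind, had 917 to 1079 in sham and 346 to 1373 in cPTAA (-0.20 ± 0.29, adjusted p = 0.666). Nfil3, a repressor that competes with Dbp for D-boxes, had 389 and 489 in cPTAA 3 and 4 and 114 to 249 in the other 5 aneurysms, with 262 to 462 in sham (-0.77 ± 0.36, adjusted p = 0.136). Among the aneurysms Nfil3 was thus highest in the 2 libraries where Dbp was lowest, though cPTAA 3 lay inside the sham range of Nfil3. Ciart, a repressor of the Clock and Bmal1 pair, had 24.4 to 126 in sham. In cPTAA 3 and 4 it had 13.5 and 2.93, and in cPTAA 6 and 9 it had 434 and 299, the same order as Dbp (0.22 ± 1.0, adjusted p = 0.900). Bhlhe40 and Bhlhe41, repressors that bind E-boxes, differed by 0.49 ± 0.18 (adjusted p = 0.0624) and 0.53 ± 0.43 (adjusted p = 0.412). Bmal1 itself differed by -0.09 ± 0.62 (adjusted p = 0.938) and Npas2 by -0.26 ± 0.57 (adjusted p = 0.782).

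**Figure D5:**
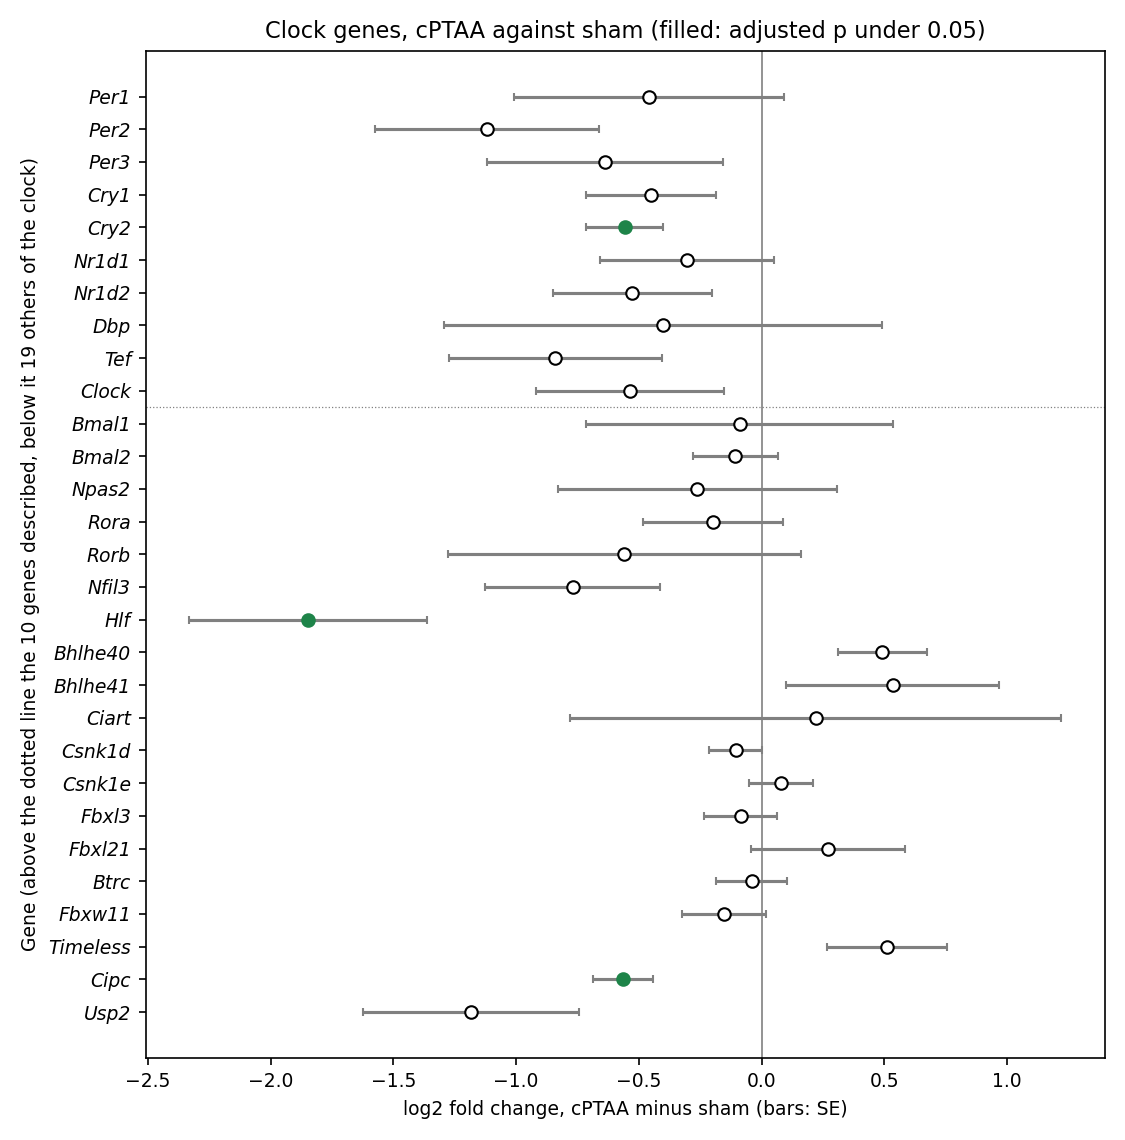
Log2 fold change, cPTAA minus sham, with its SE (bars) for the 10 members above the dotted line and 19 other clock genes below it; filled points have an adjusted p under 0.05. Cry2 is the filled member at -0.56, and Hlf (-1.85) and Cipc (-0.56) are filled among the others.

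Genes known to follow the clock or to act on it moved in both directions. Of 16 clock output genes, 3 rose and 5 fell, with a median log2 fold change of -0.05, beside 12.9% and 11.1% of all genes tested that rose and fell. Rgs16, a regulator of G-protein signalling, rose from 3.16 to 21.4 in sham to 42.2 to 129 in cPTAA (2.99 ± 0.41, adjusted p = 0.000109), and Tspan4, a membrane tetraspanin, rose by 1.22 ± 0.26 (adjusted p = 0.00303). Pdk4, a brake on glucose oxidation, fell from 5687 to 16610 in sham to 1218 to 3688 in cPTAA (-2.28 ± 0.29, adjusted p = 6.12e-05), and Por, the electron donor of cytochrome P450 enzymes, fell by 1.29 ± 0.17 (adjusted p = 6.46e-05). All 10 brown adipocyte markers fell in the same samples, and their part in the falls of Pdk4 and Por was not tested. Of 9 temperature-responsive genes, 1 rose and 4 fell, with a median of -0.29, beside the same 12.9% and 11.1% of all genes. Rbm3, an RNA-binding protein induced by cold, rose by 1.06 ± 0.21 (adjusted p = 0.00180), and the chaperones Hspd1 and Hspa1a fell (-1.25 ± 0.23 and -1.23 ± 0.31, adjusted p = 0.00108 and 0.00906).

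The high Per1 of cPTAA 12 came with high values of acute response genes. Per1 is known to be induced directly by the glucocorticoid receptor and by cAMP signals. cPTAA 12 was the highest of the 7 aneurysms in 10 of 12 glucocorticoid-responsive genes and in 13 of 16 immediate early genes, against 24.7% of all tested genes. Fkbp5, a chaperone of the glucocorticoid receptor chosen here after its values were seen, had 3019 in cPTAA 12 and 591 to 929 in the other 6. The same library had the lowest value of the 7 in 9 of 10 brown adipocyte and 8 of 10 smooth muscle markers, against 19.1% of all tested genes, and the part of these features in its Per1 level was not tested. Between the groups, 2 glucocorticoid-responsive genes rose (Lcn2 by 3.84 ± 0.47, adjusted p = 4.57e-05, and Mt2 by 1.94 ± 0.36, adjusted p = 0.00109) and 3 of 12 fell, among them Pdk4 and Klf9 (-1.02 ± 0.22, adjusted p = 0.00295), with a median of -0.30. Of the 16 immediate early genes 4 rose, among them Ier3 (1.66 ± 0.22, adjusted p = 8.64e-05) and Egr2 (2.15 ± 0.33, adjusted p = 0.000258), and Nr4a1 fell (-1.99 ± 0.45, adjusted p = 0.00472), with a median of 0.24. The counts of both lists stand beside 12.9% of all genes tested that rose and 11.1% that fell.

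The genes most like each member were often other members. Over the 12 libraries with group means removed, and among 11826 genes with a mean of at least 50 in both groups, Dbp was closest to Tef (r = 0.979), Per3 (0.966) and Nr1d2 (0.958). Per3 was closest to Tef (0.978), and Nr1d2 also to Tef (0.965). Nr1d1 was closest to Cdc25b (0.962), a phosphatase of the cell cycle, and then to Nr1d2 (0.954). Per2 was closest to Hlf (0.939) and Tspan4 (0.939), and its lowest coefficient was with Bmal1 (-0.973). Per1 (closest to Atp13a1, 0.942), Cry1 (Tra2a, 0.922), Cry2 (Them6, 0.861) and Clock (Rdx, 0.988) had no member among their 3 closest genes. These coefficients rank genes over shared libraries that include cPTAA 3, 4, 6 and 9, which stand apart in several of the genes, and carry no test. Within the aneurysms, without cPTAA 3 and 4, the coefficient of Nr1d1 with Nr1d2 was -0.419 and that of Nr1d2 with Dbp 0.657, so a high rank here can rest on those 2 libraries.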

How the data were processed

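Bulk RNA sequencing of 7 cPTAA and 5 sham aortas was analysed, with groups and library numbers taken from the titles. Per the labels' protocols, polyadenylated RNA was selected with oligo-dT. HISAT2 2.0.5, featureCounts 1.5.0-p3, StringTie and GRCm39 are named per the submitters' processing notes; the scaling and strand setting are not given in the sources used here, so reads of a gene and of its antisense partner may be mixed. Each gene has a deposited signal, called normalised read counts here. Divided by 1 factor per library they gave whole reads for 100% of values (within 0.02 reads). Totals were 14078885 to 17493428 reads per library.

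Genes with a value of at least 1 in at least 5 libraries (21415) were tested with limma 3.58.1 (trend, R 4.3.3) on log2(value + 1) (two-sided, adjusted p by Benjamini-Hochberg, called under 0.05). Fold changes of low genes are understated on this scale. The ratio of Dbp to Bmal1 and the correlations within cPTAA were tested by exact permutation with scipy 1.17.1. Exon lengths, transcript lengths and overlaps came from GENCODE M21 (GRCm38), promoters from RefSeq. Alternatives were another pseudocount, 2 other filters, TMM scaling, edgeR 4.0.16, DESeq2 1.42.0 and voom with sample weights on the recovered reads, marker scores as covariates, and libraries left out. The fits with Bmal1, with Bmal1 and the brown adipocyte score, with the long-transcript score, and without cPTAA 6 and 9 were chosen after seeing the data. The scripts' tests were tried on simulated data.

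One other gene of the clock is not reported here and was left out of the lists. The members and lists were chosen with earlier results of these data known. The text names all 10 members, 8 stated clock genes and any other clock gene that passed, the 2 genes of smallest p in each direction of each other list, and the closest genes of each member.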

Additional observations from a re-analysis of the deposited data

Results flagged for a closer look

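Per1 in cPTAA 12, at 1853 normalised read counts, lay far from the other 6 aneurysms, of which the nearest had 732; the gap was 0.663 of the group's range, above Dixon's critical value for 7 samples. This was 1 of 38 groups checked, and chance gives about 1 in 20.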

How the results depend on the processing

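No paired analysis was possible because the titles give no library number to both groups. The fall of Cry2 kept its sign in all 27 alternatives and passed in 25 of them. No member rose in any of the 27. The count of members that fell, 1, became 4 with voom sample weights, 0 with the brown adipocyte or macrophage score as a covariate, 3 without cPTAA 6, 7 and 9 and sham 8, 2 with the long-transcript score, 4 with Bmal1 as a covariate alone or with the brown adipocyte score, and 3 without cPTAA 6 and 9, with or without Bmal1. Leaving out 1 library gave 1 to 2, the 2 being without cPTAA 6 or 9. Of the other clock genes, 0 to 1 rose when 1 library was left out (1, Bhlhe40, without cPTAA 3, sham 1 or sham 11), and 1 rose with Bmal1 as a covariate, with all libraries or without cPTAA 6 and 9. Those that fell became 0 with either marker score and 1 with Bmal1 and the brown adipocyte score. All genes called, 5128, became 759 with the brown adipocyte score, 0 with the macrophage score and 650 with both Bmal1 and the brown adipocyte score. They became 6958 with voom sample weights, 7029 with the long-transcript score and 6569 without cPTAA 6, 7 and 9 and sham 8. With Bmal1 they were 5954, without cPTAA 6 and 9 they were 6484, and with both changes 5642. Without cPTAA 6 alone they were 4738, and without cPTAA 9 alone 5974. The cause of these changes was not tested, except that neither the brown adipocyte nor the macrophage score overlapped between the groups.

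Directions of log2 fold changes that had not passed turned as follows, and none of the turned values passed. The ratio of Dbp to Bmal1 ran from -0.989 to 0.524 when 1 library was left out (0.424 without cPTAA 3, 0.524 without cPTAA 4 and 0.291 without sham 11). Leaving out 1 library gave -0.43 to 0.27 for Bmal1 (Arntl), -0.23 to 0.90 for Ciart, -0.58 to 0.052 for Npas2, -0.31 to 0.022 for Rora and -0.76 to 0.19 for Dbp. By edgeR and DESeq2, Bmal1 was 0.30 and 0.31, Dbp 0.34 and 0.35, and Npas2 0.16 and 0.18. With voom sample weights Bmal1 was 0.48, Ciart -0.78, Npas2 0.39 and Rora 0.065. Without cPTAA 6, 7 and 9 and sham 8 Bmal1 was 0.71, Ciart -0.91, Npas2 0.57 and Rora 0.28. With the long-transcript score Bmal1 was 0.30, Ciart -0.25, Npas2 0.092 and Rora 0.032. Without cPTAA 6 and 9 Bmal1 was 0.64, Ciart -0.76, Npas2 0.43, Rora 0.19 and Clock 0.002, and with Bmal1 as a covariate in addition Npas2 was 0.003 and Rora 0.19. With Bmal1 and the brown adipocyte score Ciart was -1.12 and Bhlhe41 -0.63. With the macrophage score, Dbp was 2.11, Nr1d1 0.94, Per1 0.98, Cry1 0.15 and Npas2 0.15. Depth allowed every member to be measured, the lowest being Cry1.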
